A study of Mus musculus with 12 samples.

Results

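Tumour organoids in which Cldn7 was targeted by the first of a pair of short hairpin RNAs (hairpin 1) were compared with organoids given a hairpin that targets no gene (the control). The comparison took the 4 libraries of the group sh1Cldn7 and the 4 of shControl, 8 of the 12 libraries in the series, and paired them by the replicate number in their titles. The other 4 libraries carried hairpin 2 and are used here for the shared estimate of spread and for the test of the difference between hairpins. The organoids in all groups were made from primary tumours of the MMTV-Neu mouse, a model whose Neu (Erbb2) oncogene is under a viral promoter active in the mammary epithelium, and every group has the genotype label WT. Lentivirus was given at a multiplicity of infection of 20, infected organoids were selected with 3 µg/ml puromycin for 3 days, and they were then kept for 5 days in fibrillar collagen I with 2.5 nM FGF2. Cells process a short hairpin RNA into a guide that silences matching transcripts, and a hairpin can also silence transcripts it was not made for. The labels give no age of the mice and do not say whether the 4 replicates were separate animals or cultures. The p-values therefore speak only of the spread among these libraries, which may be technical. For the main test it is the spread left, over all 12 libraries, after differences between replicate numbers are removed.

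Cldn7 encodes claudin 7, a membrane protein found in tight junctions and along the lateral membrane of epithelial cells, where it also binds the adhesion protein EpCAM. Per its design text the study asked what Cldn7 does in tumour invasion and spread. One other system recurs below. NFE2L2 (NRF2) is the transcription factor that switches on glutathione and antioxidant genes; KEAP1 holds it for degradation, and oxidants or electrophiles release it.

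The 8 libraries held 34988358 to 36512090 counts in replicates 1 and 2 and 68581024 to 74950974 in replicates 3 and 4. The counts of 17025 genes, of 25861 listed, sufficed for a test. The epithelial markers Krt8 (615 to 1323 CPM, the count scaled to the library's total) and Epcam (907 to 1857 CPM) were high throughout. Krt5 stood at 108 to 1420 CPM, Krt17 at 34.2 to 350 CPM and Krt19 at 32.7 to 344 CPM. Each of these 3 was lowest in control replicate 4. The fibroblast marker Col1a1 stood at 91.3 to 1542 CPM and was highest in replicate 4 of both groups. The fat cell marker Adipoq was at 0 to 0.173 CPM. The replicate number separated the libraries most: on the first principal component (71.3% of variance in log2 CPM) replicates 1 and 2 lay apart from 3 and 4, and the leukocyte gene Ptprc stood at 4.55 to 9.21 CPM in the former and 0 to 0.179 CPM in the latter. Both kinds of library were balanced across the groups. In bulk samples, fewer cells of a type and less RNA per cell cannot be told apart.

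Cldn7 itself was examined first, since it checks the labels (NCBI Gene 53624, a protein-coding gene; RefSeq GRCm38.p6, chr11:69964779-69967886). In replicates 1 to 4 it stood at 144, 136, 186 and 101 CPM in the control and at 31.1, 30.0, 44.2 and 29.0 CPM with hairpin 1. Every hairpin 1 library lay below every control library. The fitted log2 change of Cldn7 was -2.07 (SE 0.08), or 23.8% of control (edgeR adjusted p = 2.63e-06). The exact two-sided permutation test over the 8 libraries gave p = 0.0286, the smallest value that its 70 arrangements allow. That test ignores the pairing; exchanging labels only within the 4 pairs gave an exact permutation p of 0.125, the smallest that its 16 arrangements allow. With hairpin 2, set against the same control libraries, the log2 difference of Cldn7 was -2.30; hairpin 2 minus hairpin 1 was -0.23 (SE 0.08) and did not pass (edgeR adjusted p = 0.149).

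**Figure D1:**
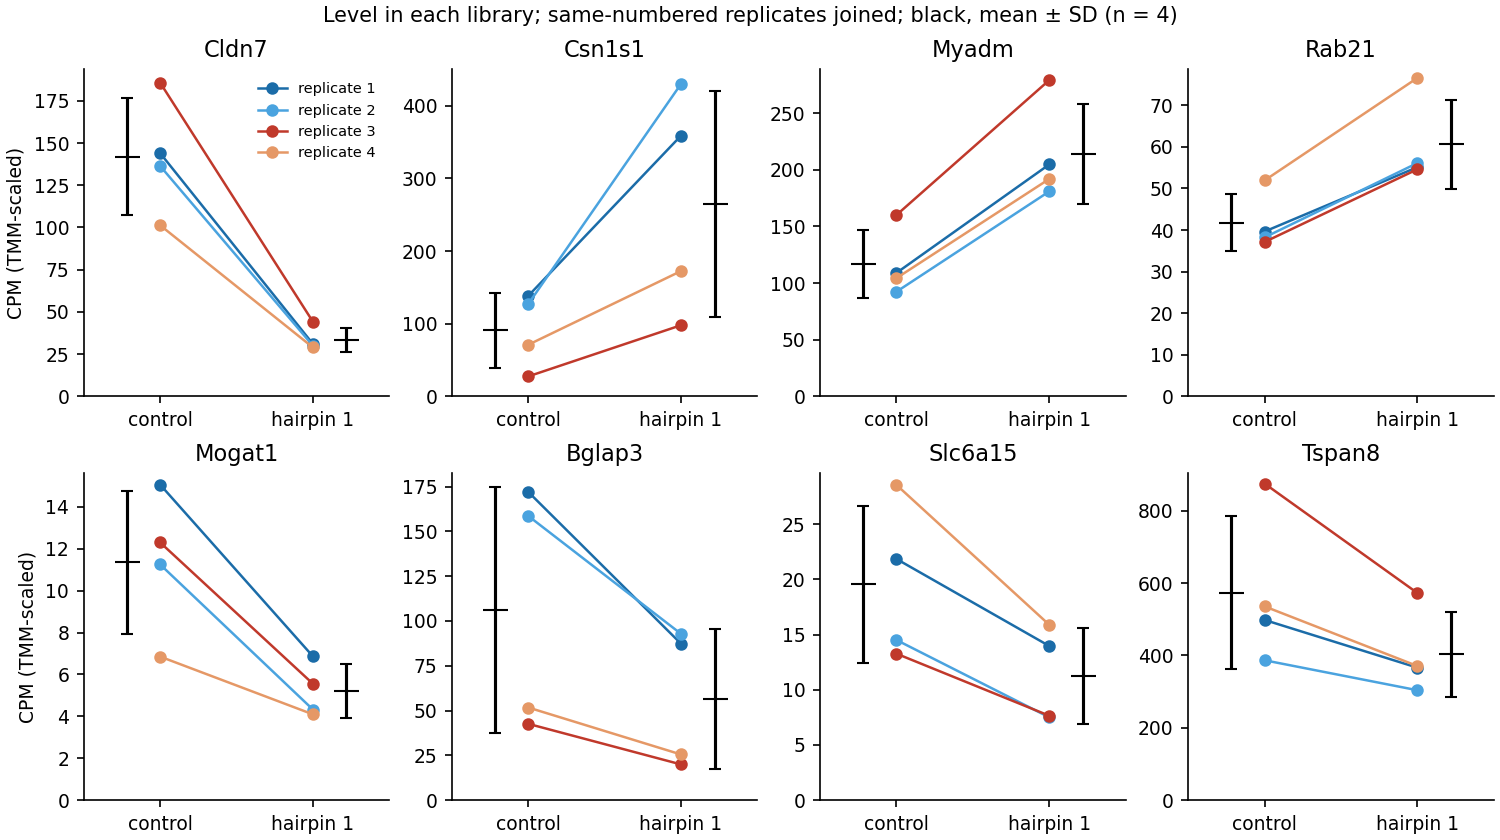
Level of 8 genes in each library, in CPM, for the control and hairpin 1; lines join libraries with the same replicate number, and black marks give the group mean ± SD (n = 4). Cldn7 went from 101 to 186 CPM in the control to 29.0 to 44.2 CPM with hairpin 1, and in all 8 panels the 4 lines slope the same way.

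Beyond Cldn7 the changes were few and mostly small. Of 17025 genes tested, 124 passed the threshold (edgeR adjusted p under 0.05), which is 0.728% of them: 65 were higher with hairpin 1 (0.382%) and 59 lower (0.347%). More than 2-fold changes were seen for 6 genes that rose and for 2 that fell, Cldn7 and Mogat1, while 82 of the 124 changed by less than 0.5 on the log2 scale. All 124 went the same way in 4 of 4 replicate pairs, against 24.4% of all genes tested. In 48 of them the 4 hairpin 1 libraries did not overlap the 4 control libraries, against 1.19% of all genes tested. The 124 were called by a paired test on these same libraries, so both contrasts follow in large part from that choice. The median log2 difference over all genes was -0.0019, and 49.5% of genes lay above 0.

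The count rests on the pairing and on single libraries. Without the replicate number in the model only Cldn7 passed. With 1 library left out, the count was 10, 71 and 31 without control replicate 1, 3 and 4. It was 2, 8, 11 and 26 without hairpin 1 replicate 1, 2, 3 and 4, and 344 without hairpin 2 replicate 3. Without replicate number 1, 2, 3 or 4 in every group it was 2, 1, 81 and 6. Cldn7 and Rab21 were the 2 genes called in each of the 12 fits that left out 1 library. All 124 genes kept their sign in each of these fits that included them. They were called from these same libraries with 1 sign in 4 of 4 pairs, so a reversal was hardly possible.

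**Figure D2:**
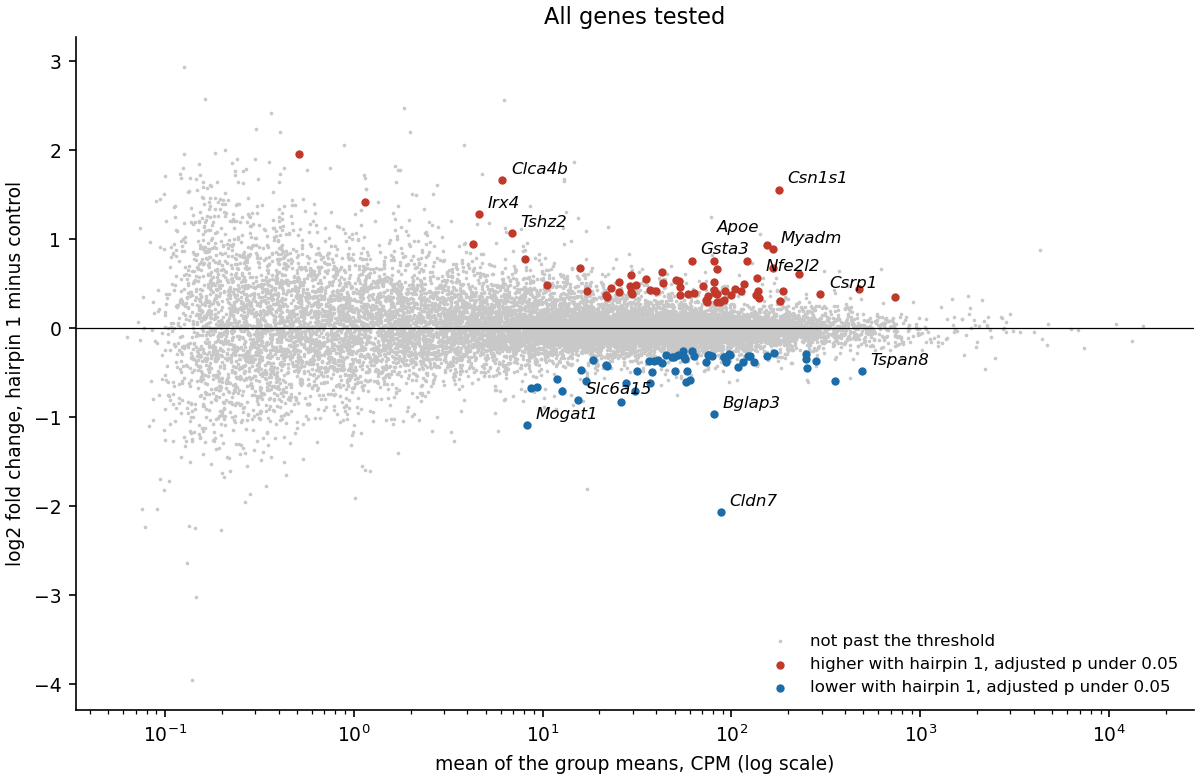
Log2 fold change of each of the 17025 genes tested, hairpin 1 minus control, against its mean level in CPM (log axis); red and blue points are the 65 genes higher and the 59 lower with adjusted p under 0.05. Cldn7 stands apart from the other blue points at -2.07, and most coloured points lie within 1 log2 unit of 0.

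The promoters of 4 of the genes that rose are shown before their values, because each holds a short motif of a factor known to act on genes of its kind: the antioxidant response element core bound by NFE2L2 (TGACNNNGC) for 3 of them, and the palindrome bound by STAT factors (TTCNNNGAA), which relay prolactin to milk protein genes, for the casein gene Csn1s1. The motifs were searched on both strands in the 250 bases before the transcript start that a RefSeq promoter table (GRCm38.p6) gives for each gene, and the matched bases are in capitals. The windows, written in the direction of the gene, are chr2:75704855-75704913 (minus strand) for Nfe2l2, chr3:122245383-122245471 (plus strand) for Gclm, chr1:21240424-21240512 (plus strand) for Gsta3 and chr5:87666068-87666156 (plus strand) for Csn1s1.
Nfe2l2: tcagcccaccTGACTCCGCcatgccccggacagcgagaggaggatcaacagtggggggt
Gclm: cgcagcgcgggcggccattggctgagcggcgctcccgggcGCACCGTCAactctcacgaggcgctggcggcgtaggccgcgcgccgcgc
Gsta3: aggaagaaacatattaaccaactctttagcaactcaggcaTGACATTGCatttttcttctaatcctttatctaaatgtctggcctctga
Csn1s1: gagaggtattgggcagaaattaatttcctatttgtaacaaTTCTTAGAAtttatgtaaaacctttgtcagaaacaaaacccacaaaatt
The capitals begin 240, 134, 121 and 100 bases before that transcript start, in that order. Counted from the outer edge of the RefSeq gene record, which lies further upstream for Gclm and Gsta3, they begin 240, 64, 101 and 100 bases before it. In Gclm the motif reads on the opposite strand. Of 27025 genes with such a window, 11.5% held TGACNNNGC and 8.13% held TTCNNNGAA. Among the 12563 of them that were tested here, the shares were 13.7% and 7.19%. Within the NRF2 and antioxidant list described below, 11 of 36 members with a window held the first motif, and within the milk protein list 1 of 16, Csn1s1, held the second. No match to the first was found in the windows of Srxn1 and Keap1. A match is a description of the letters, not evidence of binding.

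Csn1s1, which encodes a casein of milk, had the largest rise but one among the genes named here. It stood at 138, 127, 27.6 and 71.1 CPM in the control and at 359, 430, 98.0 and 172 CPM with hairpin 1. Every pair rose, by 1.28 to 1.83 on the log2 scale, although replicates 3 and 4 began lower and the groups overlap. The fitted rise was 1.56 (SE 0.18; edgeR adjusted p = 0.00819). The other members of the milk and lactation list did not follow: of 24 tested, 1 rose, none fell and 23 did not pass, with a median of 0.03 beside -0.0019 over all genes.

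Clca4b, a member of a family of secreted proteins named as chloride channel regulators, rose by 1.66 (SE 0.29; edgeR adjusted p = 0.0364). It was measurable mainly in replicates 1 and 2, at 6.54 and 5.34 CPM in the control and 16.5 and 20.6 CPM with hairpin 1. In replicates 3 and 4 it stood at 0 and 0.0137 CPM in the control and 0.0149 and 0.115 CPM with hairpin 1, so its fold change rests on 2 pairs. It has near-identical relatives among which the counting could split reads.

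Developmental regulators made up 2 of the 4 largest rises among called genes with a mean of at least 2 CPM. Irx4, an Iroquois homeobox factor, stood at 1.32, 7.56, 2.13 and 1.04 CPM in the control and 4.79, 12.2, 3.92 and 3.88 CPM with hairpin 1, a rise of 1.28 (SE 0.23; edgeR adjusted p = 0.0393). Tshz2, a zinc finger homeobox factor of the teashirt family, stood at 2.82, 8.04, 3.47 and 3.88 CPM and then at 5.62, 11.8, 7.18 and 12.2 CPM, a rise of 1.07 (SE 0.20; edgeR adjusted p = 0.0450). Replicate 2 was the highest control library for both. They were the 2 of 34 tested members of the homeobox and Tshz list that passed; 25 of the 34 lay above 0, with a median of 0.25.

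Myadm, a membrane protein of lipid rafts, was at 109, 92.4, 160 and 104 CPM in the control and at 205, 181, 279 and 192 CPM with hairpin 1. Its groups did not overlap and its pairs were close to each other, at 0.80 to 0.97 (fitted 0.89, SE 0.09; edgeR adjusted p = 0.00592). Podxl2, a sialomucin related to podocalyxin, rose by 0.94 and Tvp23b, a Golgi membrane protein, by 0.76 (edgeR adjusted p = 0.0217 and 0.00592). Sytl4, a partner of RAB27 in granule exocytosis, was at 4.84, 5.29, 6.40 and 7.22 CPM and then at 10.6, 8.88, 8.51 and 13.0 CPM, a rise of 0.78 (SE 0.13; edgeR adjusted p = 0.0266).

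Apoe, the lipid carrier apolipoprotein E, stood at 39.1, 220, 99.3 and 63.8 CPM in the control and 60.1, 399, 142 and 214 CPM with hairpin 1. The pair differences were unequal, from 0.51 in replicate 3 to 1.75 in replicate 4, and the fitted rise was 0.94 (SE 0.17; edgeR adjusted p = 0.0409). Macrophages are one source of Apoe, and their 24 tested markers had a median pair difference of -0.835, 0.153, 0.124 and 1.579 in replicates 1 to 4, with none past the threshold and summed levels of 169 to 441 CPM in the control and 159 to 304 CPM with hairpin 1; their part in the result was not tested. Dap, a gene named for its role in interferon-induced cell death, rose by 0.76 and Svil, the actin-bundling protein supervillin, by 0.68 (edgeR adjusted p = 0.0104 and 0.0251).

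The genes of smallest p were not those of largest fold. Rab21, a small GTPase of early endosomes that binds integrin tails, was at 39.6, 38.2, 37.1 and 51.9 CPM in the control and 55.1, 56.1, 54.6 and 76.6 CPM with hairpin 1. The groups did not overlap, the pairs lay between 0.475 and 0.56, and the rise was 0.54 (SE 0.05; edgeR adjusted p = 0.00426). Ube2h, a ubiquitin-conjugating enzyme, rose by 0.49 and Adgra3, an adhesion G protein-coupled receptor, by 0.52 (edgeR adjusted p = 0.00592 and 0.00792). Vamp3, a fusion protein of recycling endosomes, fell in every pair, from 75.9, 85.3, 60.5 and 48.9 CPM to 53.4, 60.3, 41.8 and 37.1 CPM (-0.49, SE 0.06; edgeR adjusted p = 0.00792).

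Mogat1, an enzyme that acylates monoacylglycerol on the way to triglyceride, had the largest fall after Cldn7. It stood at 15.1, 11.2, 12.3 and 6.85 CPM in the control and at 6.87, 4.33, 5.56 and 4.10 CPM with hairpin 1, a change of -1.09 (SE 0.12; edgeR adjusted p = 0.00592). It alone of 39 tested fatty acid and triglyceride genes passed, and the median of that list was -0.03. Slc6a15, a transporter of neutral amino acids, fell from 21.9, 14.5, 13.3 and 28.6 CPM to 14.0, 7.51, 7.65 and 15.9 CPM (-0.81, SE 0.12; edgeR adjusted p = 0.0198). It was likewise the only call among 32 amino acid transport and ATF4 genes.

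Bglap3, a gene of the osteocalcin family, fell from 172, 159, 42.6 and 51.7 CPM to 87.3, 92.8, 19.9 and 25.5 CPM. Replicates 1 and 2 were high and 3 and 4 low in both groups, and each pair fell by 0.77 to 1.09 (fitted -0.96, SE 0.10; edgeR adjusted p = 0.00592). Its near-identical neighbours Bglap and Bglap2 make the assignment of its reads uncertain. Scrg1, a small secreted protein, fell by 0.82, and Chl1, a neural cell adhesion molecule of the L1 family, by 0.60 (edgeR adjusted p = 0.0131 and 0.0460). Mef2c, a MADS-box transcription factor best known in muscle, fell by 0.61, Pkia, an inhibitor of protein kinase A, by 0.71 and Cdc14a, a phosphatase, by 0.61 (edgeR adjusted p = 0.0177, 0.0104 and 0.0222). The remaining genes of the 12 largest falls were Slc35d3 (-0.71), Cep85l (-0.67) and Chic1 (-0.66), with edgeR adjusted p of 0.0198, 0.0380 and 0.0200.

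**Figure D3:**
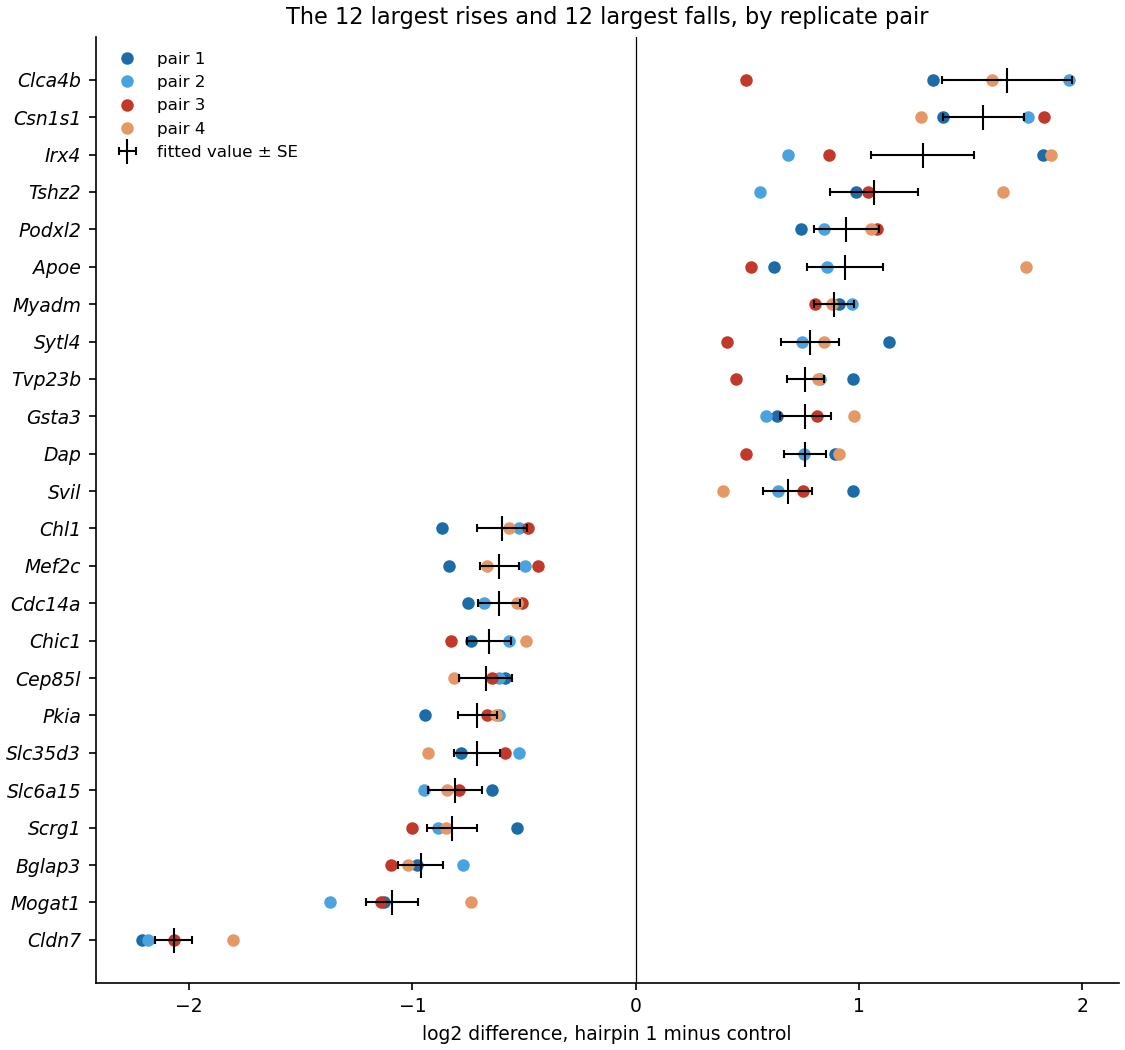
Log2 difference of hairpin 1 minus control for the 12 largest rises and 12 largest falls among genes with adjusted p under 0.05 and a mean of at least 2 CPM; coloured points are the 4 replicate pairs and black bars the fitted value ± SE. No point crosses 0, Myadm has pairs close together (0.80 to 0.97), and Apoe has a single high pair, replicate 4 at 1.75.

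Of 11 claudins and claudin-domain genes tested, 2 fell, none rose and 9 did not pass: Cldn7 and Cldnd1, a claudin-domain protein, which fell by 0.32 (SE 0.05; edgeR adjusted p = 0.0270). The median of the list was -0.04. At an unadjusted p under 0.05, 1 member was higher and 3 were lower, and in 4 of 4 pairs none was higher and 5 were lower. Cldn8 had the smallest p of those that did not pass and was lower in 4 of 4 pairs (-0.41, SE 0.10, edgeR adjusted p = 0.110). Cldn4, a claudin of the same junctions chosen here after its values were seen, was at 54.9, 97.6, 30.9 and 12.6 CPM in the control and 91.0, 90.5, 47.1 and 30.0 CPM with hairpin 1 (0.60, SE 0.19; edgeR adjusted p = 0.199); DESeq2 with the block called it (adjusted p = 0.0293). None of 29 tight junction and polarity genes, 15 adherens junction genes or 17 desmosome and hemidesmosome genes passed, with medians of -0.02, 0.06 and -0.05 (edgeR). Their members ranged from -0.485 to 0.19, from -0.69 to 0.61 and from -1.12 to 0.70. At an unadjusted p under 0.05 these lists had 1, 4 and 3 genes higher and 3, 2 and 1 lower. DESeq2 with the replicate block called 1, 2 and 1 of their genes. Over all 17025 genes tested, 2176 had an unadjusted p under 0.05 in edgeR, and DESeq2 with the block called 607. Counts of either kind for the lists below are to be read beside these.

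Among 13 known membrane partners of claudin 7, 1 fell and 12 did not pass. The one was Tspan8, a tetraspanin that forms complexes with claudin 7 and EpCAM, at 498, 387, 875 and 536 CPM in the control and 366, 304, 573 and 371 CPM with hairpin 1. Each pair fell, by 0.35 to 0.61, and the fitted change was -0.485 (SE 0.07; edgeR adjusted p = 0.0131). Epcam was at 1233, 1120, 1857 and 1023 CPM and then at 1173, 949, 1686 and 907 CPM, lower in 4 of 4 pairs but not past the threshold (-0.16, SE 0.06; edgeR adjusted p = 0.328).

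The title of the series names a smooth muscle actin program. Of 25 smooth muscle contractile genes tested for hairpin 1, 1 rose, none fell and 24 did not pass; 21 lay above 0, and the median was 0.16. At an unadjusted p under 0.05, 8 were higher and 1 lower; 10 were higher and none lower in 4 of 4 pairs. DESeq2 with the block called 3 of them, and edgeR on the 2 groups alone with the block 5. Csrp1, a LIM-domain protein of actin bundles, was the one that passed. It went from 309, 262, 269 and 182 CPM to 435, 345, 344 and 225 CPM, a rise of 0.39 (SE 0.05; edgeR adjusted p = 0.0107). The largest values were those of Actg2, an enteric smooth muscle actin (1.19, SE 0.29), the actin-binding calponin Cnn1 (1.18, SE 0.33), the smooth muscle myosin Myh11 (1.13, SE 0.32) and Tagln, transgelin (0.82, SE 0.23). None of these 4, named after their values were seen, passed (edgeR adjusted p = 0.103, 0.1497, 0.164 and 0.159). Mean levels in the control and with hairpin 1 were low for Actg2 (1.47 and 3.54 CPM), Cnn1 (3.41 and 7.06 CPM) and Myh11 (7.80 and 17.9 CPM). Those of Tagln were 57.8 and 101 CPM. Myh11 did not rise in replicate 4 (5.10 CPM in the control, 4.64 CPM with hairpin 1). Acta2, the smooth muscle actin itself, was at 105, 246, 102 and 85.0 CPM in the control and 180, 422, 122 and 88.5 CPM with hairpin 1. It was higher in 4 of 4 pairs, but by little in replicate 4, and the groups overlap (0.50, SE 0.22; edgeR adjusted p = 0.384). Pericytes and vascular smooth muscle cells are among the cell types that could carry these genes. Their markers summed to 421 to 688 CPM in the control and 474 to 674 CPM with hairpin 1. Of these markers 10 of 13 lay above 0 (median 0.18) and none passed. The part of any such cell type in the result was not tested. None of 32 SRF-MRTF and actin regulator genes passed in edgeR (median 0.08), with 6 higher and 1 lower at an unadjusted p under 0.05 and 4 called by DESeq2 with the block. Dstn and Cotl1, actin-binding proteins outside these lists and chosen after their values were seen, rose by 0.35 and 0.34 (edgeR adjusted p = 0.0241 and 0.0198). Other called actin regulators outside these lists went the other way. Scin fell by 0.49 and Arpc5 by 0.29 (edgeR adjusted p = 0.0277 and 0.0241), also chosen after their values were seen.

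Of 30 basal and myoepithelial genes 1 rose and 1 fell, and of 26 basement membrane genes likewise 1 rose and 1 fell; the medians were 0.27 and 0.09. In the basal list 23 of 30 lay above 0, 9 were higher and 1 lower at an unadjusted p under 0.05, and 12 were higher and 2 lower in 4 of 4 pairs; in the basement membrane list 16 of 26 lay above 0, with 4 higher and 2 lower. DESeq2 with the block called 5 and 4 genes of these lists. The basal calls were Col4a2 and Tspan8, both of which belong to another list as well. Col4a2, a chain of the common collagen IV, was at 118, 137, 98.3 and 345 CPM in the control and 155, 209, 152 and 602 CPM with hairpin 1, with replicate 4 high in both groups (0.61, SE 0.09; edgeR adjusted p = 0.0188). Col4a5, a chain of another collagen IV trimer, fell by 0.31 (SE 0.05; edgeR adjusted p = 0.0287), from 112, 154, 140 and 138 CPM to 99.8, 118, 114 and 105 CPM. None of 30 luminal, 26 mesenchymal, 21 interstitial collagen or 35 protease genes passed in edgeR, with medians of 0.04, 0.19, 0.07 and 0.15. At an unadjusted p under 0.05 they had 4, 5, 1 and 3 genes higher and 5, 1, 2 and 2 lower, and DESeq2 with the block called 0, 1, 1 and 2. The protease list did not hold Tmprss4 and Pepd, a protease and a dipeptidase whose calls are given further below. Fibroblast markers summed to 1244 to 7363 CPM in the control and 1347 to 9123 CPM with hairpin 1, and 13 of 19 lay above 0 (median 0.11); their part in the values of Col4a2 was not tested. Single calls came from the YAP-TAZ targets, where F3 (tissue factor, which starts coagulation) rose by 0.48 (SE 0.07; edgeR adjusted p = 0.0220), and from the BMP list, where Bambi, a decoy receptor of BMP signalling, fell by 0.42 (SE 0.08; edgeR adjusted p = 0.0474).

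Cell cycle genes leaned one way without passing. All 37 genes of G2-M and mitosis lay above 0, with a median of 0.39, and 31 of them were higher in 4 of 4 pairs. None passed the threshold in edgeR or in DESeq2 with the block. In edgeR 2 of the 37 had an unadjusted p under 0.05, against 2176 of the 17025 genes tested. With edgeR on the 2 groups alone with the block 3 passed, Mki67 among them (adjusted p = 0.0482). The pair medians were 0.507, 0.268, 0.113 and 0.882 in replicates 1 to 4. Mki67, the proliferation marker, was at 73.4, 117, 162 and 17.6 CPM in the control and 116, 148, 203 and 42.6 CPM with hairpin 1 (0.59, SE 0.26; edgeR adjusted p = 0.384); control replicate 4 was far below the others. Of 35 genes of G1-S and replication 34 lay above 0 (median 0.23) and none passed in edgeR, with 9 higher and 1 lower at an unadjusted p under 0.05 and 2 called by DESeq2 with the block. Ccnd1, cyclin D1, was at 262, 273, 340 and 111 CPM and then at 370, 381, 474 and 253 CPM (0.64, SE 0.18; edgeR adjusted p = 0.147); DESeq2 with the block called it (adjusted p = 0.00881). Genes of 1 phase are known to be switched on together.

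NFE2L2 and its targets held more calls than any other of the 53 lists. Of 43 tested genes of the NRF2 and antioxidant list, 5 rose, none fell and 38 did not pass, against 0.382% of all genes called higher; 38 of the 43 lay above 0, with a median of 0.25. The list was drawn up knowing that some of its members had moved in these samples, so its count is not independent evidence of a direction. With control replicate 1, 3 or 4 left out, 1, 3 or 2 members passed, and without hairpin 1 replicate 1, 2, 3 or 4, 0, 1, 2 and 1; without hairpin 2 replicate 3, 8 passed.

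Nfe2l2 itself was at 105, 106, 121 and 107 CPM in the control and 161, 148, 173 and 169 CPM with hairpin 1. The groups did not overlap, and the rise was 0.57 (SE 0.06; edgeR adjusted p = 0.00592). Keap1, its inhibitor, rose as well, from 91.9, 82.7, 84.0 and 68.1 CPM to 108, 112, 101 and 86.4 CPM (0.32, SE 0.05; edgeR adjusted p = 0.0199). Among the target enzymes, Srxn1 (sulfiredoxin, which restores oxidised peroxiredoxins) went from 98.9, 62.1, 37.5 and 60.3 CPM to 156, 86.9, 56.2 and 116 CPM (0.66, SE 0.09; edgeR adjusted p = 0.0106). Gsta3, a glutathione transferase with close paralogs, went from 71.9, 45.4, 28.8 and 40.1 CPM to 111, 67.9, 50.6 and 78.9 CPM (0.76, SE 0.11; edgeR adjusted p = 0.0200). Gclm, the modifier subunit of the enzyme that begins glutathione synthesis, went from 135, 90.2, 67.2 and 92.1 CPM to 176, 111, 92.7 and 134 CPM (0.42, SE 0.07; edgeR adjusted p = 0.0277). For these target enzymes the groups overlap, since replicate 1 was high and replicate 3 low in both, while each pair moved the same way.

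Other classical targets did not pass in the fit to all 12 libraries. Gstm1 (0.41, SE 0.08; edgeR adjusted p = 0.0568) and Hmox1, haem oxygenase 1 (0.56, SE 0.12; edgeR adjusted p = 0.0796), were higher in 4 of 4 pairs. Both passed in 4 other settings, among them DESeq2 with the block (adjusted p = 0.000593 and 0.0013) and edgeR on the 2 groups alone with the block (adjusted p = 0.0355 and 0.0467). Nqo1, a quinone reductase often used as a readout of NFE2L2, was at 822, 497, 390 and 492 CPM in the control and at 816, 447, 374 and 476 CPM with hairpin 1 (-0.07, SE 0.10; edgeR adjusted p = 0.840). These 3 genes were chosen after their values were seen.

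Many of the same list differed between hairpin 1 and hairpin 2. The test was hairpin 2 minus hairpin 1, in which 585 genes passed (3.44% of those tested) and 318 were lower with hairpin 2 (1.87%); left out singly, hairpin 1 replicates 1 to 4 gave 197, 205, 165 and 189 calls and hairpin 2 replicates 1 and 4 gave 252 and 296. Of the 43 NRF2 and antioxidant genes, 20 were lower with hairpin 2 than with hairpin 1 and none higher. That count was 12, 13 and 13 without hairpin 1 replicate 1, 2 and 4, 13 without hairpin 2 replicate 1, and 9, 12 and 13 without replicate number 1, 2 and 4 in every group. Over all fits that left out libraries it ran from 9 to 22; it was 29 by DESeq2 with the block and 1 without the replicate number in the model. Both hairpins were set against the same 4 control libraries, and the test of the difference shares the hairpin 1 libraries with the comparison above. Against that control the list's median was 0.25 with hairpin 1 and -0.27 with hairpin 2.

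Nfe2l2 stood at 74.3, 75.8, 77.4 and 85.0 CPM with hairpin 2, below all 4 control and all 4 hairpin 1 libraries. Hairpin 2 minus hairpin 1 was -1.06 (SE 0.06; edgeR adjusted p = 5.235e-05), and hairpin 2 minus control was -0.49 (SE 0.06; edgeR adjusted p = 0.00254). The difference between hairpins in Nfe2l2 passed in each of the 27 other settings tried, at -1.10 to -1.02. Gsta3 stood at 16 to 35.4 CPM in the 4 hairpin 2 libraries, with the lowest in replicates 3 and 4, and its difference was -1.76 (SE 0.12; edgeR adjusted p = 0.000142). Gclm was at 95.1, 61.8, 61.4 and 72.6 CPM (difference -0.80, SE 0.07; edgeR adjusted p = 0.000579) and Srxn1 at 81.5, 47.6, 37.4 and 65.5 CPM (difference -0.80, SE 0.09; edgeR adjusted p = 0.00151). Gstm1 differed by -1.18 (edgeR adjusted p = 0.000156) and Nqo1 by -0.56 (edgeR adjusted p = 0.0154). Keap1, the inhibitor, was at 103, 99.8, 95.4 and 77.9 CPM with hairpin 2 and did not differ past the threshold (-0.12, SE 0.05; edgeR adjusted p = 0.207).

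**Figure D4:**
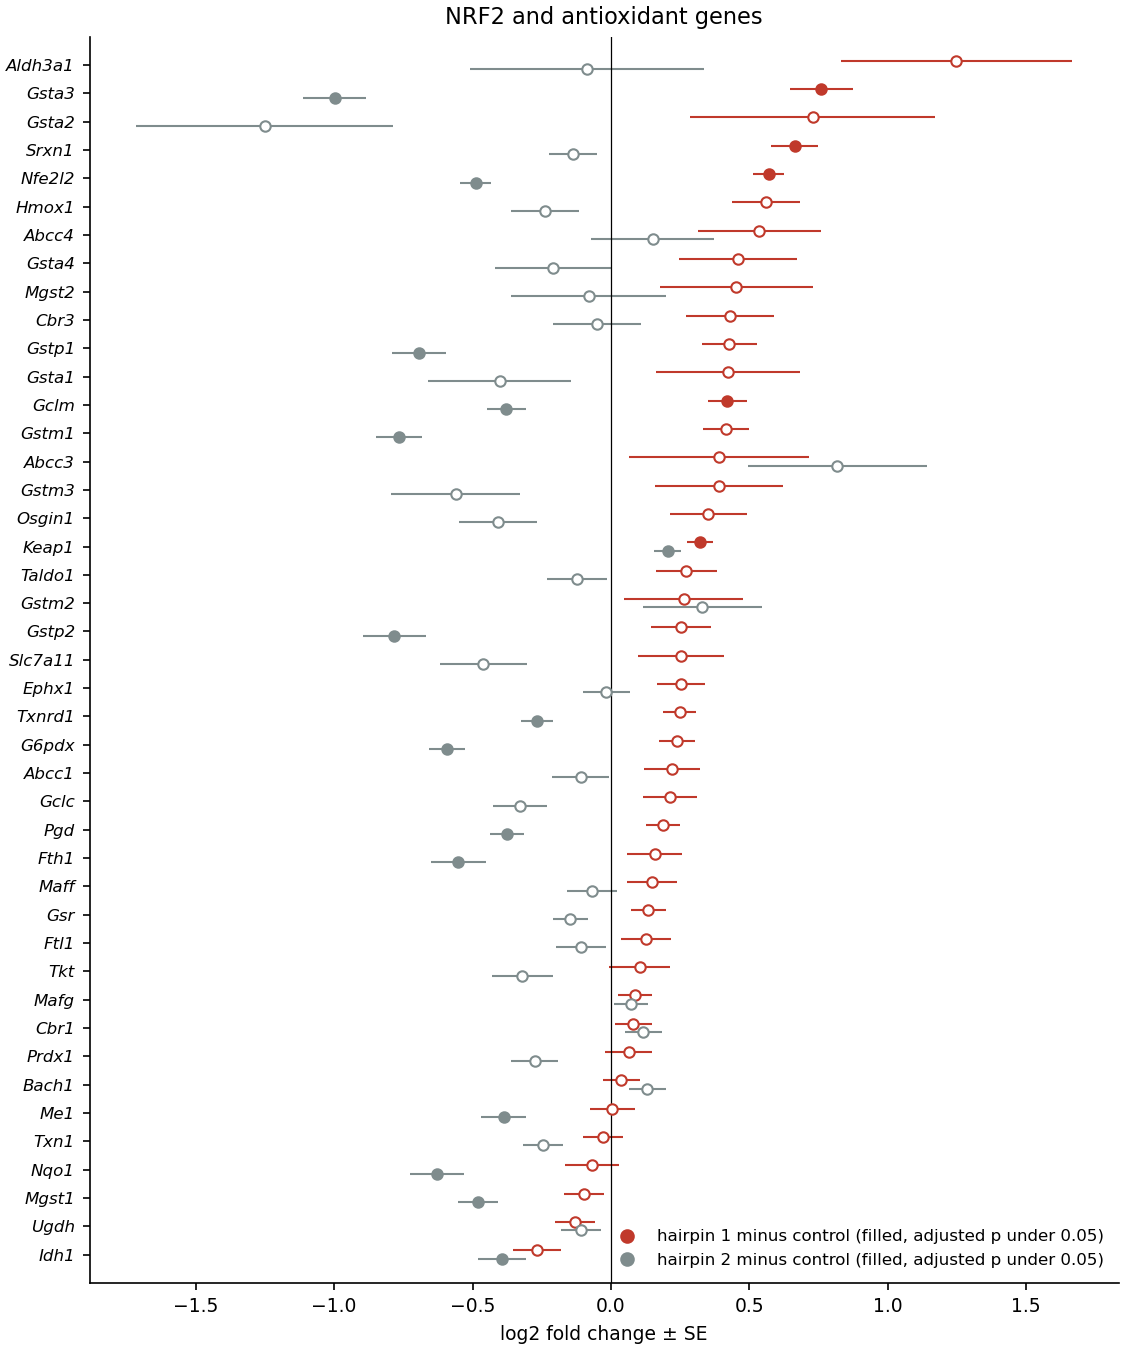
Log2 fold change ± SE of the 43 NRF2 and antioxidant genes for hairpin 1 (red) and hairpin 2 (grey), each against the same 4 control libraries; filled circles have adjusted p under 0.05. With hairpin 1, 5 genes are filled and all lie right of 0; with hairpin 2, 14 are filled left of 0 and 1, Keap1, right of it.

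Outside that list, further genes called for hairpin 1 differed between the hairpins. In all, 44 of the 124 called genes passed for the difference, against 3.44% of all genes tested. The change with hairpin 1 was the larger in 42 of the 44. The 124 were chosen by their hairpin 1 values, and the difference uses the same hairpin 1 libraries. That choice favours a difference, so the count is no separate support. Tmprss4, a serine protease of the cell surface, was at 12.2, 26.6, 26.8 and 16.7 CPM in the control, at 9.54, 17.3, 17.4 and 9.77 CPM with hairpin 1 and at 22.6, 37.9, 44.7 and 32.0 CPM with hairpin 2. It fell by 0.60 with hairpin 1 (SE 0.10; edgeR adjusted p = 0.0264), and hairpin 2 minus hairpin 1 was 1.37 (SE 0.10; edgeR adjusted p = 0.000156). Pepd, a dipeptidase that releases proline, rose by 0.46 with hairpin 1 (edgeR adjusted p = 0.0464) and differed by -0.90 (edgeR adjusted p = 0.000915). Npc1, the lysosomal cholesterol exporter, rose by 0.38 (edgeR adjusted p = 0.00819) and differed by -0.55 (edgeR adjusted p = 0.000378). Vamp3 differed by 0.63, Pkia by 0.70 and Map3k2, a kinase of the MAPK cascade that fell by 0.32 with hairpin 1, by 0.37 (edgeR adjusted p = 0.000579, 0.00337 and 0.00434). Pkia was at 16.5, 15.0, 16.1 and 14.9 CPM with hairpin 2, close to its 14.7 to 17.7 CPM in the control. Sytl4 (-0.95), F3 (-0.54), Dstn (-0.39) and Cotl1 (-0.33) were also lower with hairpin 2 than with hairpin 1, and Tspan8 (0.35) and Mogat1 (0.58) higher, with edgeR adjusted p of 0.00483, 0.00520, 0.00735, 0.00830, 0.0209 and 0.0276.

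For several of the other named genes the difference between hairpins did not pass. It was -0.16 (SE 0.09) for Myadm, 0.07 (SE 0.05) for Rab21, -0.04 (SE 0.05) for Ube2h, 0.13 (SE 0.10) for Bglap3 and -0.03 (SE 0.17) for Apoe, with edgeR adjusted p of 0.345, 0.487, 0.705, 0.508 and 0.949. Csn1s1 (-0.43, SE 0.18), Irx4 (0.29, SE 0.22) and Tshz2 (0.27, SE 0.19) did not pass either (edgeR adjusted p = 0.216, 0.505 and 0.465). A p that misses the threshold does not show that the hairpins act alike on these genes.

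**Figure D5:**
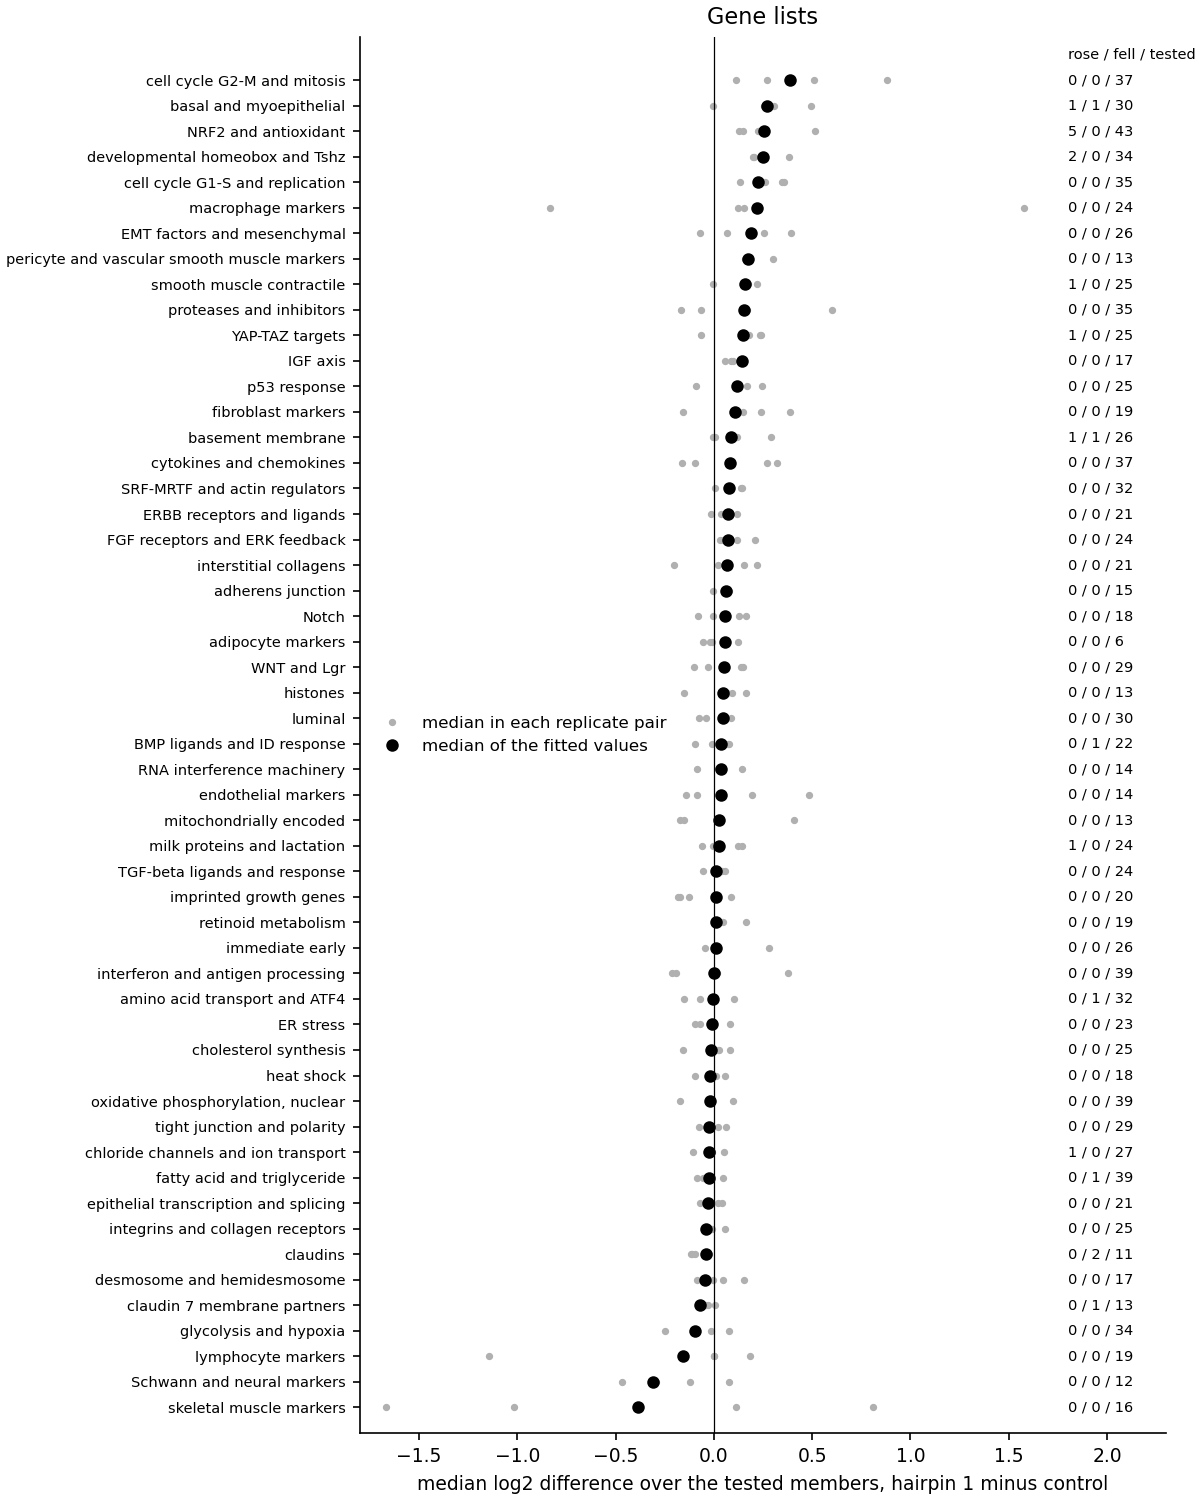
Median log2 difference, hairpin 1 minus control, of the tested members of each of 53 gene lists (black) and the same median in each replicate pair (grey), with the number that rose, fell and were tested at the right. The NRF2 and antioxidant list has the most calls, 5 of 43; G2-M and mitosis has the highest median, 0.39, with 0 of 37; and the macrophage, lymphocyte and skeletal muscle markers are spread widest over the pairs.

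Across the 53 lists, 13 held at least 1 called gene and 40 held none, where 0.728% of all genes tested were called. The medians of those 40 ran from -0.39 for skeletal muscle markers to 0.39 for G2-M genes. The skeletal muscle markers were low, at a summed 76.5 CPM or less in each control library, and their pair medians ran from -1.67 to 0.812. Schwann and neural markers had a median of -0.31, with 3 of 12 above 0. Interferon, TGF-beta, ER stress, heat shock, cholesterol and nuclear oxidative phosphorylation genes, none of which passed, had medians between -0.02 and 0.01. Of the 124 called genes, 19 belonged to a list, as did 1191 of the 17025 genes tested. The lists were chosen with earlier results of these data known, so these counts are no separate evidence.

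The direction of the calls was also read within each kind of library. Of the 124 called genes, 123 could be fitted both in replicates 1 and 2 alone and in replicates 3 and 4 alone. All 123 had the same sign in both. The 124 were chosen by a paired test on these same libraries and already went the same way in 4 of 4 pairs. Their agreement here was therefore fixed by that choice and is no separate support. The median size of the change was 0.433 in the former and 0.408 in the latter. In these smaller fits 9 and 1 genes passed. Nfe2l2 rose by 0.56 and 0.60 in the separate fits and Csn1s1 by 1.55 and 1.58, although neither passed in either (edgeR adjusted p = 0.0920 and 0.339 for Nfe2l2, 0.0748 and 0.243 for Csn1s1).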

How the data were processed

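RNA was measured by poly(A) sequencing in 12 libraries (3 groups of 4). The authors deposited 1 table of raw read counts per gene, by NCBI Gene number and symbol. Per the submitters' processing notes they used FastQC 0.74, Trimmomatic 0.39, the build mm10 and DESeq2 1.34.0; for the aligner, annotation and strand setting, nothing is given in the sources used here. Here edgeR 4.0.16 (R 4.3.3) fitted the counts of all 12 libraries by its quasi-likelihood test, with TMM scaling (also behind every CPM level), edgeR's filter on low counts by group, and group and replicate number as terms. P-values were adjusted by the Benjamini-Hochberg method over 17025 genes at 0.05. The SE of a log2 fold change is its size divided by the root of the F statistic. Pair differences are of log2 CPM with a prior count of 2.

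The replicate number was used as a pairing because same-numbered libraries deviated together from their group means: the correlation was 0.855 to 0.913 in 4 pairs, against -0.754 to 0.712 in the 12 pairs that differ in number, and each of the 8 libraries correlated best with its namesake. Within the control group and within the hairpin 1 group, no 2 libraries were alike within sampling noise. Other pairs of libraries were not compared in this way.

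Named genes are Cldn7; the 12 largest rises, 12 largest falls and 10 smallest p among called genes with a symbol and a mean of at least 2 CPM; called list members; and up to 10 differences between hairpins. Nqo1, Acta2, Gstm1, Hmox1, Epcam, Cldn4, Cldn8, Ccnd1, Dstn, Cotl1, Scin, Arpc5, Actg2, Cnn1, Myh11 and Tagln were added after their values were seen. Mki67 was named because it was among the 3 members of smallest p in its list, where no gene was called. The comparison and all lists were chosen with earlier results of these data known. DESeq2 1.42.0, other scalings and filters, fits without the block and fits leaving out libraries were alternatives. The scripts were tested on simulated data.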

Additional observations from a re-analysis of the deposited data

Results flagged for a closer look

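Of 114 groups of 4 libraries (57 genes in the control and with hairpin 1), 12 held a library whose gap to the nearest other, as a share of the group's range, exceeded Dixon's critical value; chance gives about 1 in 20. For 4 genes the same replicate number stood apart in both groups: Irx4 in replicate 2 (7.563 CPM in the control, 12.15 CPM with hairpin 1), and in replicate 4 Cep85l (17.77 and 10.09 CPM), Rab21 (51.93 and 76.56 CPM) and Col4a2 (345.2 and 601.5 CPM). The other flags were single: Cldn7 with hairpin 1 in replicate 3 (44.24 CPM), Chl1 with hairpin 1 in replicate 3 (84.88 CPM), Nfe2l2 in control replicate 3 (120.9 CPM) and Acta2 in control replicate 2 (246.3 CPM).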

How the results depend on the processing

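The replicate block decides the number of calls. For hairpin 1 minus control, 124 with the block, the count was 1 without the replicate block, 390 in the 2 groups alone with it and 0 in the 2 groups alone without it (224 at an unadjusted p under 0.05), and DESeq2 gave 607 with the block and 27 without. Replicates 1 and 2 alone gave 9 and replicates 3 and 4 alone 1; leaving out libraries gave 1 to 344. For hairpin 2 minus hairpin 1, 585 with the block, it was 1 without the block in all groups and 1 in the 2 groups, 1436 and 49 by DESeq2 with and without it, 84 and 42 within replicates 1 and 2 and replicates 3 and 4, and 66 to 672 with libraries left out. Other scalings and filters kept both counts within 1.5 times. Cldn7 lost its call only in the 2 groups alone without the block (-2.064, adjusted p = 0.259); its adjusted p ran from 2.654e-105 to 0.259. All 124 genes kept their sign in every setting that fitted them, which their choice from these same libraries made likely beforehand. The settings for differences between hairpins in single genes and in the NRF2 list were chosen after seeing the data. Genes under about 1 CPM, such as Clca4b in replicates 3 and 4, rest on few counts.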
